A study of Mus musculus with 16 samples.

Results

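The brain transcriptome of wild-type and *MRPS5* V338Y mutant mice was examined for 10 genes of adult neurogenesis and cell division. Of these, 6 mark immature neurons, namely *Dcx*, *Sox11*, *Sox4*, *Igfbpl1*, *Dlx1* and *Dlx2*, and 4 serve cell division, namely *Mki67*, *Top2a*, *Cdk1* and *Ccnd2*. They were chosen by name from a fixed list, and these 10 genes were all found among the 39179 gene identifiers of the count table. RNA-Seq was done on 16 mice in 4 groups of 4, wild-type at 3 months (mice 9 to 12), V338Y at 3 months (13 to 16), wild-type at 19 months (12 to 15) and V338Y at 19 months (17 to 20). The V338Y mice were homozygous for a knock-in substitution in *MRPS5*, a small-subunit protein of the mitoribosome, which increases misreading during mitochondrial translation. It was a germline change and so not limited to neurons, and the labels name no further allele or treatment for any group. The labels name the tissue as brain, while the methods of the study name cortex, cut from the cerebellum, and female mice at both ages. The mouse numbers stand for separate animals, and equal numbers in different groups are not the same mouse.

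New neurons are made in the adult mouse brain mainly in the subventricular zone, from which neuroblasts migrate to the olfactory bulb, and in the dentate gyrus of the hippocampus, so the cortex itself holds few of them, although *Dcx* is kept by some cells of the piriform cortex. Stem and progenitor cells divide and pass through a stage that expresses the homeobox genes *Dlx1* and *Dlx2* in the lineage of inhibitory neurons. Their young neurons express the SRY-related factors *Sox4* and *Sox11*, the microtubule-binding protein doublecortin (*Dcx*) and *Igfbpl1*. Division itself is marked by *Mki67* (Ki-67), *Top2a* (topoisomerase II alpha) and *Cdk1*, the kinase of mitotic entry, and *Ccnd2* encodes cyclin D2, a G1 cyclin used by neural progenitors. Outside these niches, dividing cells of the adult brain are mostly oligodendrocyte precursors and microglia, and *Dlx1* and *Sox4* are also expressed in some mature cells.

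The promoters of the cell division genes are shown first, because *Mki67*, *Top2a* and *Cdk1* are known to be controlled together through CCAAT boxes and cell cycle homology regions (CHR). Of the 10 genes, 8 were matched in a RefSeq table of promoters (build GRCm38.p6), and *Igfbpl1* and *Ccnd2* are named here without a sequence. Each run gives the 250 bases before the RefSeq start, 5′ to 3′ on the strand of the gene, with CCAAT and TTTGAA and their reverse complements ATTGG and TTCAAA in capitals.
Top2a (chr11:99024190-99024439, minus strand): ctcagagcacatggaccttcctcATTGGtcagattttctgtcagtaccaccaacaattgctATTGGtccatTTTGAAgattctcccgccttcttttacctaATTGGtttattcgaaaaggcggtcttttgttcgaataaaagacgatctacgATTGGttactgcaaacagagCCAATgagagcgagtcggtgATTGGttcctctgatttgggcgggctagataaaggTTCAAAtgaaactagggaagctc
Mki67 (chr7:135716380-135716629, minus strand): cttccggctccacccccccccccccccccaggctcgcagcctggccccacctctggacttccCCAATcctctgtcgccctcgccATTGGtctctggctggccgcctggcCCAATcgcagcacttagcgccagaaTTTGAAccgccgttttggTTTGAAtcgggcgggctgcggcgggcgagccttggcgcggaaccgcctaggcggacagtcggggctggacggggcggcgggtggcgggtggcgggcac
Cdk1 (chr10:69352913-69353162, minus strand): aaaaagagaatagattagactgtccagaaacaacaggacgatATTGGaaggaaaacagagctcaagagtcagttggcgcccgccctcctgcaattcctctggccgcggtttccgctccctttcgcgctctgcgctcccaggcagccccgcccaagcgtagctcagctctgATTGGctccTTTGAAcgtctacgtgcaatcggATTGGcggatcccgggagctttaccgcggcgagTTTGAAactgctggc
The *Top2a* window held 6 CCAAT and 2 TTTGAA matches, and those of *Mki67* and *Cdk1* held 3 and 2 each, none of which overlapped. Among 32851 windows of this length, 33.8% held a CCAAT and 16% a TTTGAA on either strand. Of the immature neuron genes, *Sox11* had 1 match of each kind, *Sox4* had 4 CCAAT, *Dlx2* had 1, and *Dcx* had 1 CCAAT in 1 of its 2 windows. The *Dlx1* window (chr2:71529195-71529444, plus strand) held none of these letters. It lies inside the GENCODE gene, which starts at 71528113, so sequence before that start was not searched. The E2F core was searched on both strands only as the exact letters TTCCCGC. These were present in 3.82% of all windows and in none of the 9 windows of the 8 genes. Other forms of the E2F site were not searched. TATAAA, present in 12.4% of all windows, was found only for *Dcx*, in both of its windows. These matches are descriptions of sequence and not of factor binding.

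In GRCm38, as annotated by GENCODE M21, *Dcx* lies on chromosome X (143855842-143933311), *Sox11* on 12 (27334264-27342574), *Sox4* on 13 (28948919-28953713) and *Igfbpl1* on 4 (45809468-45826923). *Dlx1* (71528113-71533981) and *Dlx2* (71543408-71546754) are neighbours on chromosome 2, 9.4 kb apart and 56.0 Mb or more from *Mrps5* on the same chromosome. *Mki67* is on chromosome 7 (135689784-135716361), *Top2a* on 11 (98992943-99024189), *Cdk1* on 10 (69335146-69352938) and *Ccnd2* on 6 (127125162-127152193). All 10 are protein-coding, and all but *Dlx1* are on the minus strand. The antisense gene *Dlx1as* covers the whole of *Dlx1*, and *9330179D12Rik* is antisense to part of *Ccnd2*. The strand setting used for counting was not given in the sources used here. *Dlx1as* had 12 to 70 and *9330179D12Rik* 14 to 54 counts per mouse, and neither passed the test in any comparison (*Dlx1as* log2 fold change -0.22 in wild-type and -0.03 in V338Y mice with age).

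Total counts were between 6181448 and 19601664 per mouse. No pair of mice in a group agreed within sampling noise (chi-square per degree of freedom 1.87 to 27.1), so each counted as 1 sample. *Mrps5* was at 39.5 ± 1.26 (SD, n = 4) and 39.7 ± 2.86 CPM (counts scaled to 1000000 per TMM-adjusted library) in wild-type and V338Y mice at 3 months, and at 29.8 ± 2.12 and 30.2 ± 1.25 CPM at 19 months. A substitution leaves the gene's count free to stay the same, so this does not check the genotype. The ages differed in more than age. The 8 young mice had 915 to 2129 counts of the Y-linked *Ddx3y* and 5 to 20 of *Xist*, whereas the 8 old mice had 0 of *Ddx3y*, which allows up to 3 counts a mouse, and 6331 to 14860 of *Xist*. These transcripts go against the description of all mice as female for the young groups, so age and sex-linked expression cannot be told apart. The summed level of 9 cerebellum markers was 596 to 1840 CPM in 7 young mice, 62.8 CPM in young V338Y mouse 14, and 33.3 to 45.2 CPM in the old mice. Age comparisons below therefore set groups side by side that also differ in these transcripts.

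Per kilobase of exon, *Sox4* had the highest level of the 10 genes with 4.23 CPM per kb over all mice, followed by *Ccnd2* at 3.61. *Dlx1* and *Dcx* were both at 2.6 CPM per kb. A step lower came *Sox11* at 0.834, *Dlx2* at 0.75 and *Igfbpl1* at 0.434 CPM per kb. *Mki67* at 0.19, *Top2a* at 0.157 and *Cdk1* at 0.0529 CPM per kb were at the bottom. The order was not the same in all groups. *Ccnd2* stood above *Sox4* at 19 months (4.36 against 3.54 in wild-type, 4.11 against 3.58 in V338Y mice) and below it at 3 months (2.8 against 5.27 and 3.17 against 4.51 CPM per kb). *Dlx1* was above *Dcx* at 3 months (3.45 against 2.52 CPM per kb in wild-type) and below it at 19 months (1.84 against 2.72). *Mki67* was below *Top2a* in young wild-type mice (0.151 against 0.193) and above it in the old ones (0.263 against 0.153). *Sox11* and *Dlx2* were at the same level in young wild-type mice, 0.887 CPM per kb each. Of neighbours in this order, *Sox11* and *Dlx2* overlapped in mean ± SD in 3 of 4 groups, and *Sox4* and *Ccnd2*, *Dlx1* and *Dcx*, and *Top2a* and *Cdk1* in 1 of 4 each. *Ccnd2* and *Dlx1*, *Dlx2* and *Igfbpl1*, *Igfbpl1* and *Mki67*, and *Mki67* and *Top2a* overlapped in 2 of 4 groups, and *Dcx* and *Sox11* in 0.

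**Figure D1:**
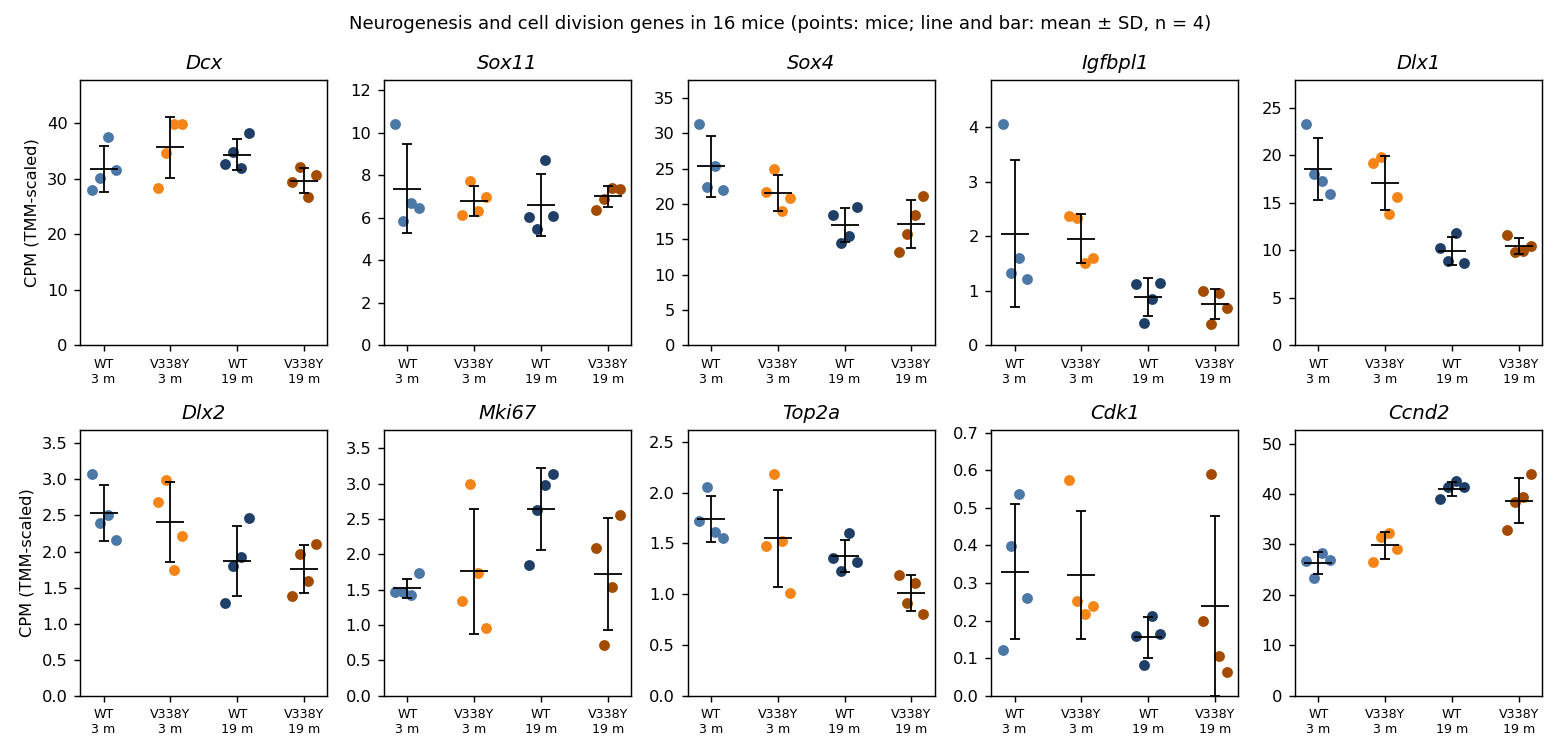
Level of the 10 genes in each of 16 mice, in TMM-scaled CPM (linear axes from 0, different for each gene), with points for mice and the mean ± SD of 4 mice for each group of genotype and age. *Dlx1* and *Igfbpl1* were lower and *Ccnd2* was higher in all 8 old than in all 8 young mice, whereas *Dcx*, *Sox11* and *Cdk1* overlapped between the ages.

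The first question was how the genes differed between 3 and 19 months in wild-type and in V338Y mice. *Dlx1* and *Igfbpl1* fell in both genotypes, *Ccnd2* rose in both, *Sox4* fell and *Mki67* rose in wild-type mice, and the other genes did not pass the test. In wild-type mice, 5 of the 9 genes that passed the count filter were called, against 62.8% of all 16101 genes tested. In V338Y mice, 3 of 9 were called, against 48.8% of 16770 genes. Both shares were below those of all genes, and nothing particular to the 10 genes is read from the counts. The same 5 and 3 genes had groups that did not overlap in CPM, which held for 56.0% and 44.7% of all genes tested. Tests were edgeR quasi-likelihood tests with Benjamini-Hochberg adjustment over all genes tested, and *Cdk1* alone stayed under the filter of 10 counts in 2 of 4 mice of a group.

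*Dlx1*, a homeobox factor of the inhibitory neuron lineage, fell in both genotypes. Its CPM was 23.3, 18, 17.3 and 15.9 in the young and 10.3, 8.83, 11.8 and 8.72 in the old wild-type mice, on 53 to 270 counts. In V338Y mice it was 19.2, 19.8, 13.8 and 15.6 at 3 months and 11.6, 9.81, 9.9 and 10.5 at 19 months. Every young mouse was above every old one. The means were 18.6 ± 3.27 and 9.91 ± 1.45 CPM in wild-type (1.8-fold lower, log2 fold change -0.85, SE 0.12, adjusted p = 8.54e-07) and 17.1 ± 2.87 and 10.5 ± 0.843 CPM in V338Y mice (1.64-fold lower, -0.72, SE 0.118, adjusted p = 0.000319). In bulk tissue, fewer cells of a type and less RNA per cell cannot be told apart.

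*Dlx2*, its neighbour, was at 15 to 36 counts in wild-type and 14 to 59 in V338Y mice. Its CPM was 3.07, 2.4, 2.51 and 2.16 in young and 1.28, 1.8, 1.92 and 2.47 in old wild-type mice, so the groups overlapped. The log2 fold change with age was -0.44 in wild-type (SE 0.241, 95% interval -0.93 to 0.05, adjusted p = 0.108) and -0.44 in V338Y mice (SE 0.215, -0.9 to 0.03, adjusted p = 0.11). Without young V338Y mouse 15 the V338Y value was -0.56 and passed (adjusted p = 0.039), and it passed in no other alternative. Per kilobase, *Dlx1* was 3.88 ± 0.165 times *Dlx2* in young wild-type mice and 3.81 ± 0.293 times in young V338Y mice. At 19 months this ratio was 2.99 ± 1.0 and 3.25 ± 0.842, with single mice between 1.87 and 4.42, so the spread among old mice was wide.

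*Igfbpl1*, an IGF-binding protein-like gene of young neurons, had few counts, 14 to 46 in the young and 5 to 18 in the old mice. Its CPM was 4.06, 1.33, 1.61 and 1.21 in young and 1.12, 0.409, 0.851 and 1.15 in old wild-type mice. In V338Y mice it was 2.37, 2.33, 1.52 and 1.61 at 3 months and 0.995, 0.393, 0.953 and 0.684 at 19 months. The ages did not overlap, though wild-type mouse 12 at 3 months (1.21 CPM) was close to the highest old mouse (1.15 CPM). The fall was 2.17-fold in wild-type (log2 fold change -1.11, SE 0.42, adjusted p = 0.0275) and 2.61-fold in V338Y mice (-1.38, SE 0.292, adjusted p = 0.00183). Without young wild-type mouse 9 the wild-type value was -0.65 (adjusted p = 0.0967), without old wild-type mouse 13 it was -0.82 (adjusted p = 0.0962), and without old wild-type mouse 14 it was -1.12 (adjusted p = 0.0616). The call was also lost after thinning all libraries to the smallest total (-0.97, adjusted p = 0.0784) and with striatum markers as a covariate (-0.6, adjusted p = 0.225).

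*Sox4*, a factor of young neurons and progenitors, had the highest counts per length. Its CPM was 31.3, 22.4, 25.4 and 21.9 in young and 18.4, 14.5, 15.5 and 19.6 in old wild-type mice, which did not overlap. It was 1.45-fold lower with age (25.3 ± 4.34 against 17 ± 2.39 CPM, log2 fold change -0.53, SE 0.117, adjusted p = 0.000673). In V338Y mice the values were 21.7, 25, 19.0 and 20.8 at 3 months and 13.2, 15.8, 18.5 and 21.1 at 19 months. Old mouse 20 lay among the young ones, and the log2 fold change of -0.32 (SE 0.125, adjusted p = 0.052) missed the threshold. It passed with the likelihood-ratio test (adjusted p = 0.0398), after thinning (adjusted p = 0.0433), with library size only (adjusted p = 0.0182), with cerebellum markers as a covariate (adjusted p = 0.0334), and without young mouse 15 (adjusted p = 0.0271) or old mouse 20 (adjusted p = 0.0156). It did not pass in the other alternatives, where the adjusted p ran from 0.0585 in the fit of all 16 mice to 0.937 with the olfactory bulb covariate. The interaction of age and genotype in a 16-mouse edgeR fit was 0.23 (SE 0.196, 95% interval -0.18 to 0.65, adjusted p = 0.701), so the genotypes were not shown to differ.

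*Sox11*, the paralog of *Sox4*, was at 5.48 to 10.4 CPM in all mice, on 37 to 152 counts. Young wild-type mouse 9 had the highest value of 10.4, while the other 3 young wild-type mice were at 5.85 to 6.71 CPM. The log2 fold change with age was -0.09 in wild-type (95% interval -0.47 to 0.28, adjusted p = 0.667) and 0.05 in V338Y mice (-0.19 to 0.3, adjusted p = 0.722). The direction in wild-type mice depended on single mice, since the value was 0.09 without mouse 9 and 0.0035 without old mouse 13.

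*Dcx* encodes doublecortin and is X-linked. Its CPM was 28.0, 30.1, 37.5 and 31.7 in young and 32.7, 34.8, 31.9 and 38.2 in old wild-type mice. In V338Y mice it was 28.4, 34.6, 39.9 and 39.9 at 3 months and 29.4, 32.2, 26.7 and 30.7 at 19 months. The groups overlapped in both genotypes. The log2 fold change was 0.14 in wild-type (SE 0.0802, 95% interval -0.03 to 0.3, adjusted p = 0.14) and -0.26 in V338Y mice (SE 0.108, -0.49 to -0.02, adjusted p = 0.0688). Without young wild-type mouse 11 the first was 0.22 with an adjusted p of 0.0176, and without young V338Y mouse 13 the second was -0.34 with an adjusted p of 0.00821. In V338Y mice, where it missed the threshold, it passed in the fit of all 16 mice (adjusted p = 0.0433), with library size only (adjusted p = 0.0277), without a filter (adjusted p = 0.0424), with striatum markers as a covariate (adjusted p = 0.0331) and without young mouse 13 (adjusted p = 0.00821), and in no other alternative.

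Cyclin D2 went the other way. *Ccnd2* was at 26.8, 23.3, 28.3 and 26.9 CPM in young and 39.1, 41.3, 42.5 and 41.3 CPM in old wild-type mice, on 218 to 505 counts. In V338Y mice it was at 26.5, 31.5, 32.3 and 29.0 CPM at 3 months and 32.9, 38.5, 39.5 and 43.9 CPM at 19 months. No young mouse reached the lowest old one. The rise was 1.61-fold in wild-type (26.3 ± 2.13 to 41.0 ± 1.41 CPM, log2 fold change 0.68, SE 0.0715, adjusted p = 1.07e-09) and 1.31-fold in V338Y mice (29.8 ± 2.64 to 38.7 ± 4.52 CPM, 0.39, SE 0.088, adjusted p = 0.00295).

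Among the proliferation markers, *Mki67* rose 1.72-fold in wild-type mice. Its counts were 12, 22, 16 and 20 in the young and 23, 32, 28 and 19 in the old mice, and its CPM was 1.47, 1.46, 1.43 and 1.73 against 1.85, 2.62, 2.98 and 3.13. The groups did not overlap, with a log2 fold change of 0.79 (SE 0.244, adjusted p = 0.00611). In the fit of all 16 mice the value was 0.78 with an adjusted p of 0.0651. In V338Y mice the counts were 21, 59, 24 and 16 at 3 months and 21, 11, 29 and 41 at 19 months. Mouse 14 (59 counts, 2.99 CPM) was above the other 7 young mice, and the log2 fold change was -0.06 (SE 0.408, 95% interval -0.96 to 0.84, adjusted p = 0.916). Without mouse 14 it was 0.37 (adjusted p = 0.413).

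*Top2a* had 14 to 43 counts in the young and 8 to 21 in the old mice. Its CPM was 1.72, 2.06, 1.61 and 1.55 against 1.36, 1.23, 1.6 and 1.32 in wild-type and 1.47, 2.18, 1.52 and 1.01 against 1.19, 0.916, 1.11 and 0.808 in V338Y mice. Both pairs of groups overlapped in CPM. The log2 fold change was -0.32 in wild-type (95% interval -0.85 to 0.21, adjusted p = 0.295) and -0.63 in V338Y mice (-1.23 to -0.04, adjusted p = 0.0721), which in the fit of all 16 mice had an adjusted p of 0.0344. *Top2a* and *Mki67* therefore had opposite signs in wild-type mice, although only *Mki67* passed the test.

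*Cdk1* was close to the counting limit. The counts were 1, 6, 6 and 3 in young wild-type, 9, 5, 3 and 4 in young V338Y, 2, 1, 2 and 1 in old wild-type and 2, 9, 2 and 1 in old V338Y mice. Summed over a group and divided by its total without TMM scaling, these gave 0.355 CPM (95% exact Poisson interval 0.203 to 0.576), 0.324 (0.201 to 0.495), 0.147 (0.0538 to 0.319) and 0.227 CPM (0.124 to 0.381), and the intervals, which cover counting error only, overlapped. *Cdk1* stayed under the count filter of the main test. Overlap of separate intervals is not a test, so a difference in *Cdk1* was neither shown nor excluded.

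**Figure D2:**
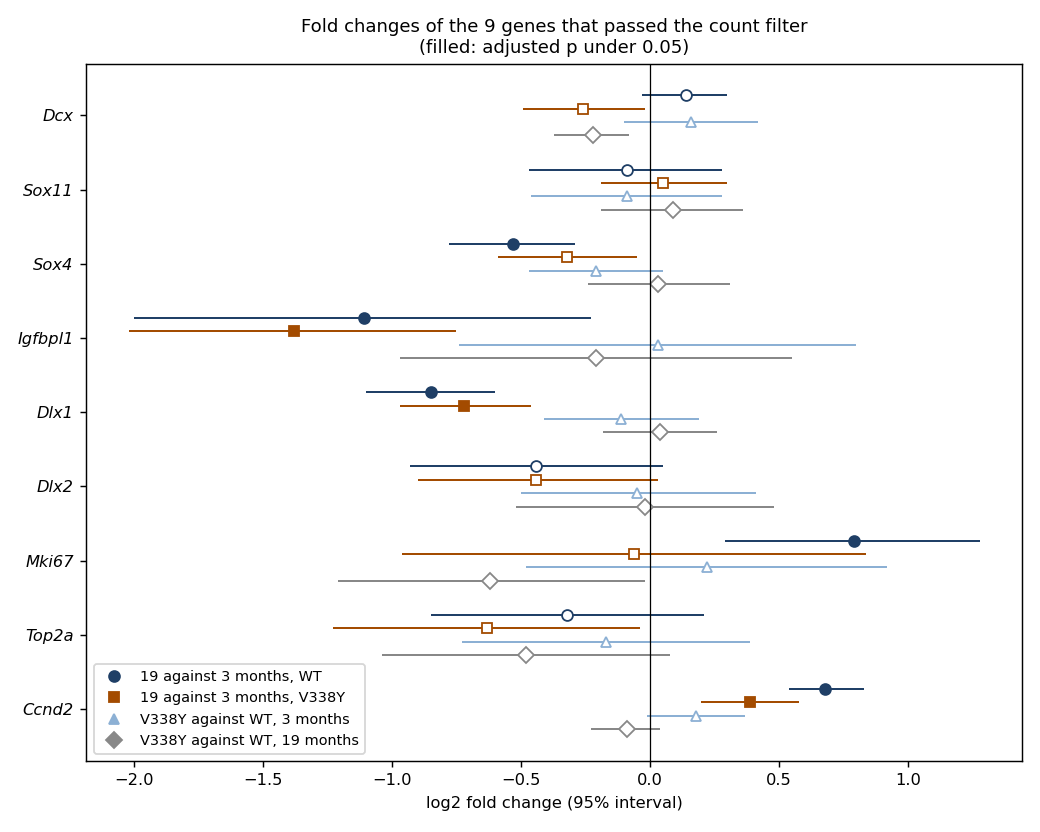
Log2 fold changes with 95% intervals of the 9 genes that passed the count filter, for age in wild-type and V338Y mice and for genotype at 3 and 19 months, with filled symbols where the adjusted p was under 0.05. The filled symbols are *Sox4*, *Igfbpl1*, *Dlx1*, *Mki67* and *Ccnd2* for age in wild-type mice and *Igfbpl1*, *Dlx1* and *Ccnd2* for age in V338Y mice, and no genotype value is filled.

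Marker levels of other regions and cells moved with age beside these genes. All 9 cerebellum and all 4 olfactory bulb markers fell, and all 7 microglia, all 6 endothelium and 5 of 6 astrocyte markers rose in both genotypes. Of all genes tested, 31.5% fell and 31.4% rose in wild-type, and 25.7% fell and 23.1% rose in V338Y mice. Summed olfactory bulb markers were 55.2 to 71.3 CPM in young wild-type, 34.1 to 61.2 in young V338Y and 17.9 to 23.7 CPM in the old mice. Young wild-type mouse 9 had the highest olfactory bulb level of its group (71.3 CPM) and also the highest *Dlx1*, *Dlx2*, *Igfbpl1*, *Sox4* and *Sox11*. *Dcx* went the other way, with the lowest value of this group in mouse 9 (28.0 CPM). Young V338Y mouse 15 had the lowest olfactory bulb level of the young mice (34.1 CPM) and also their lowest *Dlx1* (13.8 CPM). Its *Dcx* (39.9 CPM) was the highest of the young mice, level with young V338Y mouse 16. Of the other young V338Y mice, mouse 16 had an olfactory bulb level of 53.8 CPM with a *Dlx1* of 15.6 CPM. Mouse 13 had the highest olfactory bulb level of the group (61.2 CPM) with a *Dlx1* of 19.2 CPM. Mouse 14 departed from this order. It had the second-lowest olfactory bulb level (44.4 CPM) with the highest *Dlx1* (19.8), *Dlx2* (2.99), *Sox4* (25) and *Sox11* (7.7 CPM) of its group. With the olfactory bulb markers as a covariate, an alternative chosen after seeing the data, 0 of 9 genes passed the test in either genotype, but the ages do not overlap in these markers in either genotype, so the covariate and age cannot be told apart.

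Young V338Y mouse 14 had cerebellum markers near the level of the old mice. Its *Dlx1* (19.8 CPM), *Igfbpl1* (2.33), *Sox4* (25), *Dlx2* (2.99) and *Top2a* (2.18 CPM) were above those of all 8 old mice, and its *Ccnd2* (31.5 CPM) was below all of them. Its *Dcx* (34.6), *Sox11* (7.7), *Mki67* (2.99) and *Cdk1* (0.253 CPM) lay within the range of all 8 old mice. With the cerebellum markers as a covariate in V338Y mice, *Dlx1* was at -0.99 (adjusted p = 0.000707), *Igfbpl1* at -1.69 (adjusted p = 0.0108), *Sox4* at -0.58 (adjusted p = 0.0334), *Top2a* at -1.23 (adjusted p = 0.0299) and *Ccnd2* at 0.31 (adjusted p = 0.152) on the log2 scale. Among the young V338Y mice only mouse 14 (62.8 CPM) came near the old V338Y mice (39.3 to 45.2 CPM) in cerebellum markers. These adjusted values therefore rest on that mouse. In wild-type mice the ages did not overlap in the cerebellum markers, and there the covariate left 1 of 9 genes called. With striatum markers as a covariate in V338Y mice, *Dlx1* was at -0.54 (adjusted p = 0.062), *Igfbpl1* at -0.78 (adjusted p = 0.199), *Ccnd2* at 0.41 (adjusted p = 0.0702) and *Dcx*, the 1 gene then called, at -0.51 (adjusted p = 0.0331). Summed striatum markers did not overlap between the ages in V338Y mice (760 to 846 against 654 to 730 CPM). There the striatum covariate and age cannot be told apart. The part of sex-linked expression, endothelium, microglia and astrocyte markers in the fold changes was not tested.

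**Figure D3:**
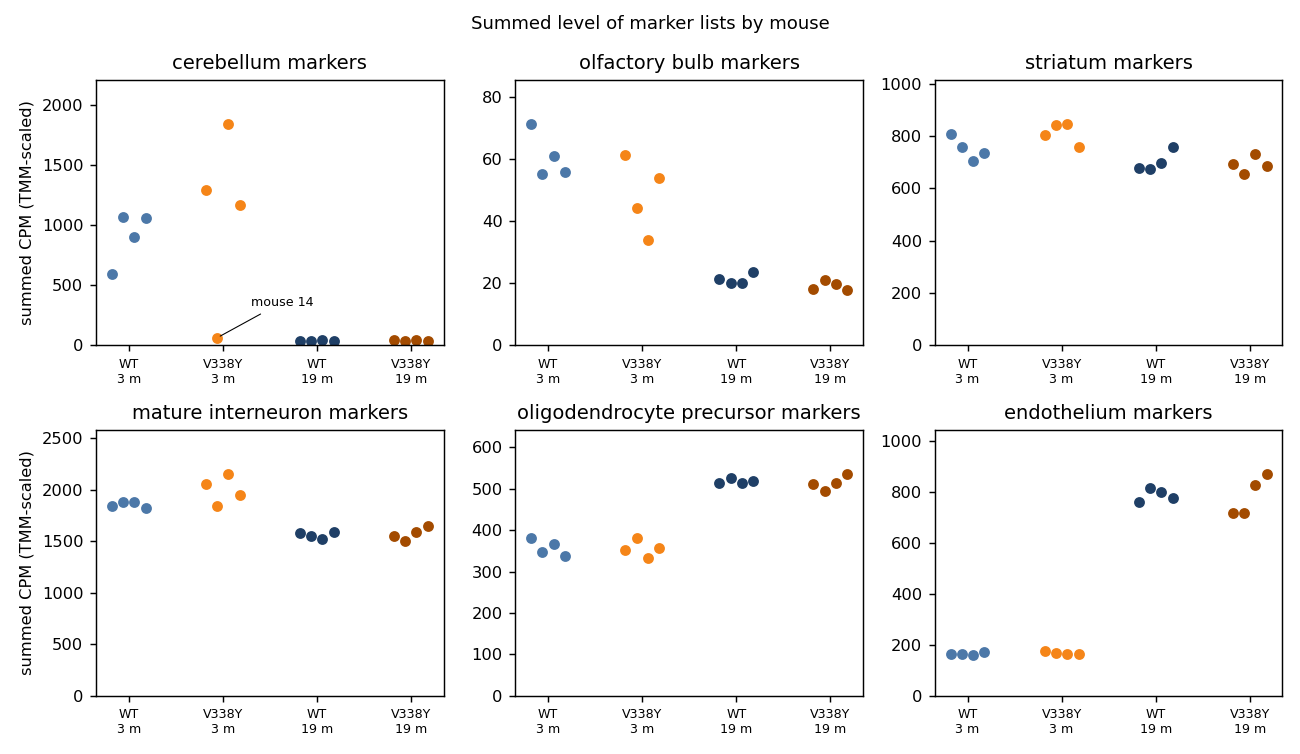
Summed CPM of marker lists in each mouse for cerebellum, olfactory bulb, striatum, mature interneurons, oligodendrocyte precursors and endothelium (linear axes from 0, different for each list), with points for mice by group. The old mice were below the young ones in olfactory bulb and interneuron markers and above them in precursor and endothelium markers, and V338Y mouse 14 at 3 months stood at 62.8 CPM for the cerebellum list.

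The wider lists around the 10 genes gave the following counts. Of 22 other immature neuron genes tested in wild-type mice, 14 fell and 3 rose with age (median log2 fold change -0.42, against -0.005 over all genes tested), while 31.5% of all genes fell. In V338Y mice 13 of 23 fell and 1 rose (median -0.40), while 25.7% of all genes fell. The largest falls of this list were in *Neurod1* (log2 fold change -3.12 in wild-type, 55.8 ± 12.2 to 6.41 ± 0.637 CPM, adjusted p = 3.93e-06), *Eomes* (-2.68, adjusted p = 2.38e-10) and *Nrep* (-2.46, adjusted p = 9.58e-05). *Neurod1* is also a gene of cerebellar granule cells and *Eomes* of olfactory bulb neurons and cerebellar unipolar brush cells, and *Neurod1* was at 10.6 CPM in the lowest young V338Y mouse.

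Stem and progenitor genes rose for the most part, 10 of 15 in wild-type (2 fell, median 0.72) and 11 of 15 in V338Y mice (0 fell, median 0.55), while 31.4% and 23.1% of all genes rose. The largest rises were in *Thbs4* (2.28 in wild-type and 2.30 in V338Y mice), *Nes* (nestin, 1.84 and 2.18) and *Vim* (vimentin, 1.8 and 1.64 on the log2 scale). *Nes* and *Vim* are also expressed by endothelium or astrocytes, whose markers rose as well. Summed endothelium markers were 160 to 174 CPM in the young and 717 to 869 CPM in the old mice, and the part of these cells in the rise was not tested.

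Genes of DNA replication and of mitosis were mostly not called. Of 23 replication genes in wild-type mice 1 rose and 8 fell (median -0.12), and of 24 in V338Y mice 3 rose and 6 fell (median -0.07). Of all genes tested, 31.4% rose and 31.5% fell in wild-type mice and 23.1% rose and 25.7% fell in V338Y mice. *Mcm3*, a subunit of the replicative helicase, rose (1.21 and 0.86), and *Ccne2* and *Ccne1*, the E cyclins, fell in wild-type mice (-0.87 and -0.64). Of 24 mitosis genes 3 rose and 1 fell in wild-type (median -0.05), and of 27 in V338Y mice 2 rose and 4 fell (median -0.11). *Anln*, which encodes anillin and is also expressed in oligodendrocytes, rose (0.33 and 0.77) and *Racgap1*, a regulator of cytokinesis, fell (-0.66 and -0.50). Only 24 of the 37 listed mitosis genes reached the count filter in wild-type mice. Of 14 other G1 regulators, 10 were higher and 3 lower in wild-type (median 0.47) and 7 were higher and 3 lower in V338Y mice (median 0.34). The CDK inhibitor *Cdkn1a* (p21) rose in both (0.66, adjusted p = 6.94e-05, and 0.85, adjusted p = 0.000391), cyclin D3 (*Ccnd3*) rose in wild-type mice (0.62, adjusted p = 1.09e-07), and the inhibitor *Cdkn2d* fell there (-0.62, adjusted p = 4.41e-08).

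**Figure D4:**
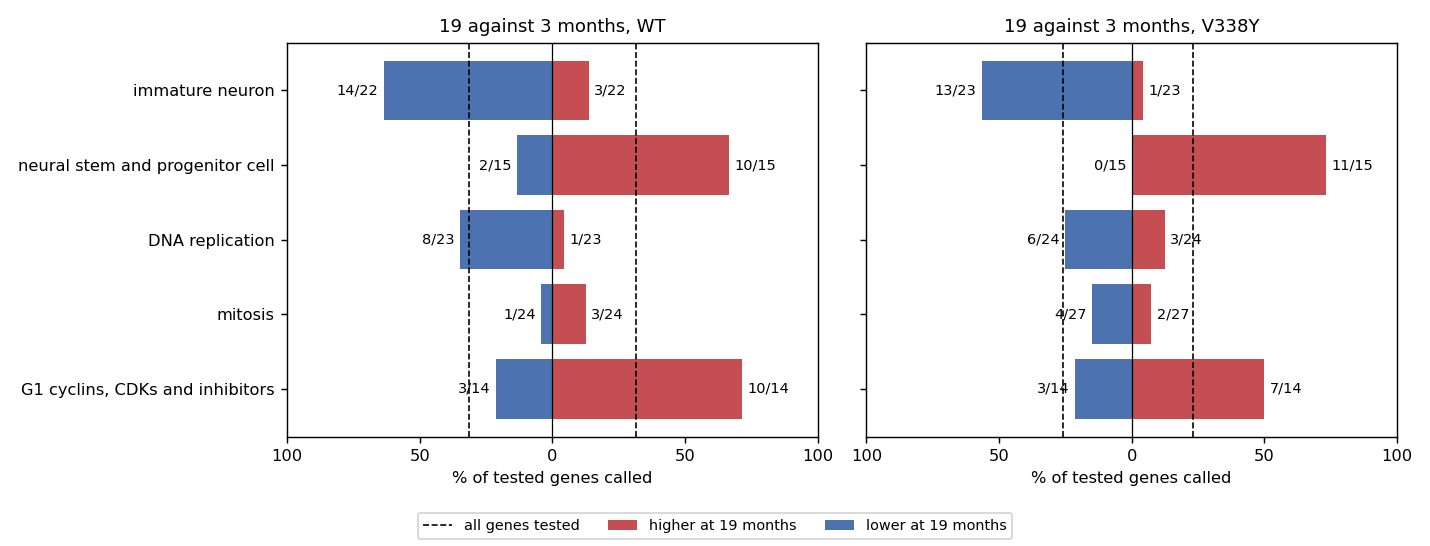
Share of tested genes called higher (red, to the right) and lower (blue, to the left) at 19 months for 5 lists in wild-type and V338Y mice, with the number called over the number tested beside each bar and dashed lines for the share over all genes tested. In wild-type mice 14 of 22 immature neuron genes were lower, and 10 of 15 stem and progenitor genes and 10 of 14 G1 regulators were higher, while 20 of 24 mitosis genes were not called.

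Other cells that divide or express *Dlx1* in the adult brain were looked at by their markers. Against 31.4% of all genes higher and 31.5% lower with age in wild-type and 23.1% higher and 25.7% lower in V338Y mice, oligodendrocyte precursor markers rose, 7 of 10 in both genotypes with 1 lower in wild-type mice, led by *Bmp4* (1.42 and 1.1), *Cspg4* (1.26 and 1.16) and *Pdgfra* (0.96 and 0.84 on the log2 scale). Their sum was 333 to 382 CPM in the young and 494 to 535 CPM in the old mice. Mature interneuron markers fell, 7 of 12 in both genotypes with 2 higher in wild-type mice, and *Pvalb* (parvalbumin) was at -1.74 in wild-type (118 ± 16.8 to 34.1 ± 2.99 CPM) and -1.59 in V338Y mice. *Pvalb* and *Reln* (-0.65 and -0.88) are also expressed in the cerebellum. *Gad1*, the enzyme of GABA synthesis, was at -0.51 in V338Y mice. The part of cerebellar tissue in the falls of *Pvalb*, *Reln* and *Gad1* was not tested. The part of precursors and interneurons in the fall of *Dlx1* and in the rise of *Mki67* was not tested either. Cortical glutamatergic neuron markers had 3 of 7 higher and 1 lower in both genotypes, pan-neuronal markers 1 of 5 higher and 3 or 2 lower, and dentate gyrus markers 2 or 1 of 5 higher and 1 lower. Striatum markers had 2 of 9 higher and 3 lower in wild-type and 5 lower in V338Y mice, choroid plexus markers 1 of 8 higher, with 1 lower in wild-type mice, and ependyma markers 2 and 3 of 6 higher.

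The second question was whether the V338Y mutation changed these genes. At 3 months, 0 of 9 genes were called by the edgeR quasi-likelihood test, with 0 at an unadjusted p under 0.05, against 0.0616% of all 16241 genes called. DESeq2 also called 0. The widest interval was that of *Igfbpl1* (log2 fold change 0.03, 95% interval -0.74 to 0.8) and the narrowest that of *Ccnd2* (0.18, -0.01 to 0.37, adjusted p = 0.926). *Dlx1* was at -0.11 (-0.41 to 0.19), *Dcx* at 0.16 (-0.1 to 0.42) and *Sox4* at -0.21 (-0.47 to 0.05).

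At 19 months 0 of 9 genes were called as well, against 3.12% of 16420 genes, and DESeq2 called 0. At an unadjusted p under 0.05 there were 2 of them, *Dcx* and *Mki67*. *Dcx* was at 34.4 ± 2.81 CPM in wild-type and 29.7 ± 2.32 CPM in V338Y mice (log2 fold change -0.22, SE 0.0713, 95% interval -0.37 to -0.08, adjusted p = 0.0892). Without old V338Y mouse 18 this value was -0.27 with an adjusted p of 0.0406. *Mki67* was at 2.64 ± 0.573 and 1.72 ± 0.787 CPM (-0.62, -1.21 to -0.02, adjusted p = 0.283), with V338Y mouse 18 at 0.72 CPM on 11 counts. *Top2a* was the single gene whose groups did not overlap, with 1.23 to 1.6 CPM in wild-type and 0.808 to 1.19 CPM in V338Y mice, which held for 8.92% of all genes; its log2 fold change was -0.48 (-1.04 to 0.08, adjusted p = 0.404). *Dlx1* at 0.04 (-0.18 to 0.26), *Sox4* at 0.03 (-0.24 to 0.31) and *Ccnd2* at -0.09 (-0.23 to 0.04) had the narrowest intervals around 0 of the genes that changed with age. *Igfbpl1* was at -0.21 (-0.97 to 0.55) on 5 to 18 counts, the widest interval.

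In the surrounding lists, some genes differed between the genotypes at 19 months and 0 at 3 months. Of all genes tested, 3.12% were called at 19 months (1.19% higher and 1.92% lower in V338Y mice) and 0.0616% at 3 months. *Tubb3* (neuronal tubulin, 0.22, adjusted p = 0.000412) and *Stmn1* (stathmin, 0.16, adjusted p = 0.0309) were higher in V338Y mice, 2 of 22 immature neuron genes. *Vim* (-0.22, adjusted p = 0.00104) and *Slc1a3* (-0.17, adjusted p = 0.0112) were lower, 2 of 15 stem and progenitor genes. Of 24 replication genes, *Mcm6* was higher (4.58 ± 0.568 to 8.66 ± 0.601 CPM, log2 fold change 0.88, adjusted p = 2.04e-05) and *Pcna* lower (28.8 ± 0.93 to 23.3 ± 2.59 CPM, -0.32, adjusted p = 0.00735). Of 24 mitosis genes, *Bub1b*, a kinase of the spindle checkpoint that lies on chromosome 2 like *Mrps5*, was lower (4.51 ± 0.51 to 0.397 ± 0.153 CPM, -3.46, adjusted p = 2.89e-11). Any part of the shared chromosome in this difference was not tested. The 14 G1 regulators gave 0 calls. *Pvalb* (0.40), *Olig1* (0.18) and *Foxj1* (0.40) were higher and *Pdgfra* (-0.16) and *Csf1r* (-0.16) lower, and no marker of the remaining regions or cells was called.

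Whether age acted differently in V338Y than in wild-type mice was tested as an interaction in edgeR over the 16 mice. It called 0 of 9 genes, against 0.0535% of 16831 genes, with 2 at an unadjusted p under 0.05 and 0 by DESeq2. These were *Dcx* (-0.38, SE 0.144, 95% interval -0.68 to -0.07, adjusted p = 0.398) and *Ccnd2* (-0.27, SE 0.112, -0.5 to -0.04, adjusted p = 0.419). *Mki67* had the largest value (-0.84, SE 0.479, -1.84 to 0.15, adjusted p = 0.557), so its call in wild-type mice alone is not a shown difference between genotypes. *Dlx1* was at 0.15 (-0.24 to 0.55) and *Igfbpl1* at -0.24 (-1.4 to 0.93). The 2 age comparisons use different mice, while the genotype comparisons share their groups with them.

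Finally, the pattern of each gene over the 16 mice was set beside that of 12848 other genes with a mean of at least 50 counts, by Pearson's r of log2 CPM. These values describe 16 libraries that fall into 2 age groups and share those groups' differences, so no test is given. The genes named were picked as the highest of 12848, so a high r is partly a result of that choice. *Cdk1* rested on 1 to 9 counts a mouse, *Mki67* on 11 to 59 and *Top2a* on 8 to 43. *Ccnd2* was most like *Stox2* (r = 0.986, Spearman's rho 0.991), then *Fat4* and *Sipa1l1* (both 0.971). *Dlx1* was most like *Otub1* (0.972), *Dpf1* (0.971) and *Tfdp1* (0.966), and *Sox4* most like *Slc35f1* (0.942). *Igfbpl1* was nearest to *Acbd6* (0.922) and *Dlx2* to *Panx1* (0.901). The nearest to *Dcx* was *E130307A14Rik* (0.891), to *Sox11* *Pcdh8* (0.854), to *Top2a* *Kat14* (0.825), to *Mki67* *Fbxl16* (0.805) and to *Cdk1* *Mis12* (0.766).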

How the data were processed

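The authors sequenced single-end libraries and deposited one table of expected counts per gene, without normalization. Their methods name RSEM, Ensembl 75 and GRCm37, while their processing notes name STAR 2.4.2a, featureCounts and GRCm38, and the extraction label speaks of muscle. The values were whole, and all 1495 of 10000 or more ended in 0, so high counts were rounded. Groups came from sample labels. Symbols were found for 37607 of 39179 identifiers in GENCODE M21. Genes were kept where 2 or more of the 4 mice of a group reached 10 counts, and scaled by TMM (factors 0.957 to 1.03 over the 16 libraries). They were tested, two-sided, with the robust quasi-likelihood test of edgeR 4.0.16 in R 4.3.3, with Benjamini-Hochberg adjustment at 0.05. A prior count of 2 was used for log2 CPM values only. Intervals are 95% intervals from the SE and the degrees of freedom of the fit. Depth limits low genes, since 10 counts in the smallest library of 6181448 is its filter level. The 10 genes were always named, with up to 3 called genes of largest change in each list (mean of at least 50 normalized counts) and 3 most similar genes each. The 10 genes and the lists were chosen with earlier results of these data known. Alternatives were other tests (likelihood ratio, DESeq2 1.42.0), scalings, filters, a 16-mouse fit, thinning, marker covariates and leaving out each mouse. Steps were tested on simulated counts. The authors' metabolome was not used here. A result for 1 marker gene is not reported here.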

Additional observations from a re-analysis of the deposited data

Results flagged for a closer look

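Single mice far from the other 3 of their group were looked for in each of the 10 genes and 4 groups, 40 sets in all, by Dixon's ratio of the gap to the range, and 3 passed its 95% critical value. Chance marks about 1 in 20 such sets. *Igfbpl1* was at 4.06 CPM in young wild-type mouse 9, above 1.61 CPM in the next mouse of its group (33 counts, ratio 0.858). *Mki67* was at 1.73 CPM in young wild-type mouse 12, a small step above the 1.43 to 1.47 CPM of the others (20 counts, ratio 0.856). *Cdk1* was at 0.575 CPM in young V338Y mouse 13, on 9 counts against 3 to 5 in the others (ratio 0.9).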

How the results depend on the processing

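No paired analysis was possible because the groups compared hold separate animals. Low counts limit *Cdk1*, *Igfbpl1*, *Mki67*, *Top2a* and *Dlx2*, and counts are relative to the bulk of all genes. Over the single-gene values, 808 of 909 alternative values kept their direction and their side of the threshold, 18 lost a call, 19 gained one and 64 changed sign, all in values under 1 on the log2 scale except some with a covariate. The olfactory bulb covariate was chosen after seeing the data. Causes were not tested. The ages do not overlap in cerebellum markers in wild-type mice or in olfactory bulb markers in either genotype, so there these covariates and age cannot be told apart. In V338Y mice the values with the cerebellum covariate rest on young mouse 14. Striatum markers overlap between the ages in wild-type mice (706 to 808 against 675 to 760 CPM). They do not overlap in V338Y mice (760 to 846 against 654 to 730 CPM), so there this covariate and age cannot be told apart.

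With 5 genes called for age in wild-type mice, the cerebellum covariate left 1 and the olfactory bulb covariate 0. With 3 called in V338Y mice, library size only gave 6 (adding *Dcx*, *Sox4* and *Top2a*), the 16-mouse fit 5 (adding *Dcx* and *Top2a*), the striatum covariate 1 and the olfactory bulb covariate 0, and leaving out 1 mouse gave 3 to 5 (5 without young mouse 15). At 19 months, 0 genes were called for genotype, 1 without a filter and 0 to 1 with 1 mouse left out (*Dcx* in both cases). Among all genes, the count for age in wild-type mice went from 10115 to 78 with the cerebellum and 351 with the olfactory bulb covariate, and in V338Y mice from 8181 to 4865, 1661 and, with the striatum covariate, 3708. For genotype at 3 months it went from 10 to 26 (likelihood ratio and DESeq2), 20 (no filter), 23 (16-mouse fit), 5 (thinning) and 6 (without young wild-type mouse 12), and at 19 months from 512 to 791 (no filter), 120 (16-mouse fit), 46 (cerebellum), 267 (olfactory bulb), 294 (without old wild-type mouse 13) and 287 (without old V338Y mouse 19). For the interaction it went from 9 to 35 (likelihood ratio), 43 (DESeq2), 32 (no filter), 108 (cerebellum) and 17 (olfactory bulb), and from 1 (without young wild-type mouse 10) to 57 (without young V338Y mouse 14) with 1 mouse left out. Library size only moved the share of higher genes among calls from 49.9% to 39.8% for age in wild-type, from 47.4% to 39.1% in V338Y mice and from 38.3% to 57.6% for genotype at 19 months.

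Signs changed as follows, in log2 units. For age in wild-type mice, the cerebellum covariate gave 0.46 for *Top2a* and -0.23 for *Ccnd2*, the striatum covariate 0.07 for *Sox11*, and the olfactory bulb covariate 1.78 for *Sox11*, 1.83 for *Sox4*, 6.43 for *Igfbpl1*, 0.49 for *Dlx1* and 1.51 for *Dlx2*. For age in V338Y mice, *Sox11* was -0.01 with library size only and -0.18 with the cerebellum covariate, *Mki67* 0.21 after thinning and 0.97 with the striatum covariate, *Top2a* 0.11 with the striatum and *Dlx2* 0.15 with the olfactory bulb covariate. For genotype at 3 months, *Igfbpl1* was -0.01 by the likelihood-ratio test, -0.02 by DESeq2, -0.06 after thinning, -0.05 with the cerebellum and -0.31 with the striatum covariate, *Mki67* -0.03 and -0.2 with these covariates, and *Sox11*, *Dlx1* and *Dlx2* 0.03, 0.1 and 0.18 with the olfactory bulb covariate. At 19 months, *Sox4* was -0.04, *Dlx1* -0.13, *Dlx2* 0.38 and *Ccnd2* 0.07 with the cerebellum covariate, and *Igfbpl1* 0.06 and *Dlx1* -0.06 with the olfactory bulb covariate. For the interaction, *Dlx2* was -0.18 after thinning and -0.07 with the olfactory bulb covariate, and *Igfbpl1* 0.15 with the striatum covariate.

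With 1 mouse left out, values that crossed 0 ranged from -0.26 to 0.09 for *Sox11* with age in wild-type and from -0.33 to 0.37 for *Mki67* in V338Y mice. For genotype at 3 months the ranges were -0.19 to 0.1 for *Sox11*, -0.18 to 0.01 for *Dlx1*, -0.17 to 0.07 for *Dlx2*, -0.15 to 0.51 for *Igfbpl1* and -0.2 to 0.43 for *Mki67*. At 19 months they were -0.01 to 0.26 for *Sox11*, -0.07 to 0.11 for *Sox4*, -0.02 to 0.14 for *Dlx1* and -0.19 to 0.1 for *Dlx2*, and for the interaction -0.02 to 0.34 for *Sox11* and -0.15 to 0.15 for *Dlx2*.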
